A study of Arabidopsis thaliana with 6 samples.

Results

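Polygalacturonases and pectate lyases are secreted enzymes that cut homogalacturonan, the pectin that holds neighbouring plant cells together in the middle lamella. Polygalacturonases hydrolyse the chain once methyl esters have been removed, whereas pectate lyases cleave it by elimination, and both act where cells part, as in floral organ abscission, pod opening and pollen release. Some family members act instead in growing walls. The genes described here are 10 listed loci, 7 of polygalacturonases and 3 of pectate lyase-like proteins, in *Arabidopsis* seedlings of the *friable1* (*frb1*) mutant. The study describes both cells that come apart and organs that fuse ectopically in *frb1* seedlings. In seedlings older than those of the arrays it reports little cell separation, but extensive fusions in many.

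The members were taken as the probe sets that the annotation of the array gives to 1 of these loci alone. This gave 7 of the 10 loci a probe set, and 1 each, out of 22810 probe sets on the array. They are the polygalacturonase genes AT3G15720, ADPG1 (AT3G57510), PGX2 (AT1G78400) and PGX3 (AT1G48100), and the pectate lyase-like genes AT4G24780, AT1G04680 and AT5G63180. The annotation used here names no probe set for ADPG2 (PGAZAT, AT2G41850), QRT2 (AT3G07970) or PGX1 (AT3G26610), so that these 3 were not analysed here.

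RNA of whole 10-day-old seedlings, grown on MS medium under constant light, was hybridized to Affymetrix ATH1 arrays, 3 of the wild type (*FRB1*) and 3 of *frb1-1*. All seedlings are labelled as the Col-0 cultivar. In *frb1-1* a T-DNA lies upstream of AT5G01100, in its predicted promoter. From a faint band in RT-PCR the study proposes that this allele is only a partial loss of function, and finds the place of the insertion compatible with this. Each value is the signal of a probe set, which reads 1 transcript with several short oligonucleotides, on a linear scale. Signals of different probe sets are not on a common scale of transcript number, so that genotypes were compared within a probe set and no gene's level was tested against another's. In RNA of whole seedlings, fewer cells of a type and less RNA per cell cannot be told apart.

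The median signal of an array ran from 154 to 199, and arrays correlated from 0.918 to 0.972 within a genotype and from 0.920 to 0.962 between genotypes over the log2 signals of tested probe sets. The leaf gene RCA had signals from 16255 to 31295. The root genes PYK10, HRGP1 and EXPA7 had signals from 18024 to 26184, 1915 to 4438 and 318 to 482. Mean signals in *frb1-1* were lower for RCA (log2 fold change -0.41, adjusted p = 0.889 from limma) and HRGP1 (-0.59, adjusted p = 0.767). PYK10 had 0.07 and EXPA7 0.13, and none of these leaf and root genes was called. The pollen marker AT5G45880 stayed at or under 42.1. No flower marker of the list is named by the annotation. For 14 of the 17 listed seed loci the annotation names no probe set. Of the 3 measured seed genes, the storage protein gene PAP85 and the LEA gene M17 were higher in *frb1-1* (adjusted p = 0.0260 and 4.70e-04 from limma). The oleosin gene OLEO3 was not called. The summed signal of the 3, most of it from M17 (means of 389 and 2052), was 527 to 651 on wild-type arrays and 2358 to 2662 on *frb1-1* arrays. The part of this difference in the results given here was not tested.

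The genotypes were compared in limma, on log2 signals and with a variance estimate shared among probe sets. Tested were the 15218 probe sets whose log2 signal averaged 6 or more over the 6 arrays, that is, a signal of 64. A gene was taken to be called at an adjusted p under 0.05 (Benjamini-Hochberg, over all probe sets tested). Of the 7 members with a probe set, 5 passed this minimum and were tested. None of the 5 was called in either direction, with 2 at an unadjusted p under 0.05 and with 1 called under each of 6 other settings. The 2 are AT3G15720 and AT4G24780, and AT3G15720 is the gene called under those settings. It passed the minimum through its *frb1-1* arrays, so that these counts are a description and no test. Of all probe sets tested, 0.368% were called and 5.96% had an unadjusted p under 0.05. In an exact permutation test on a single gene, 3 arrays against 3 cannot give a two-sided p below 0.1.

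**Figure D1:**
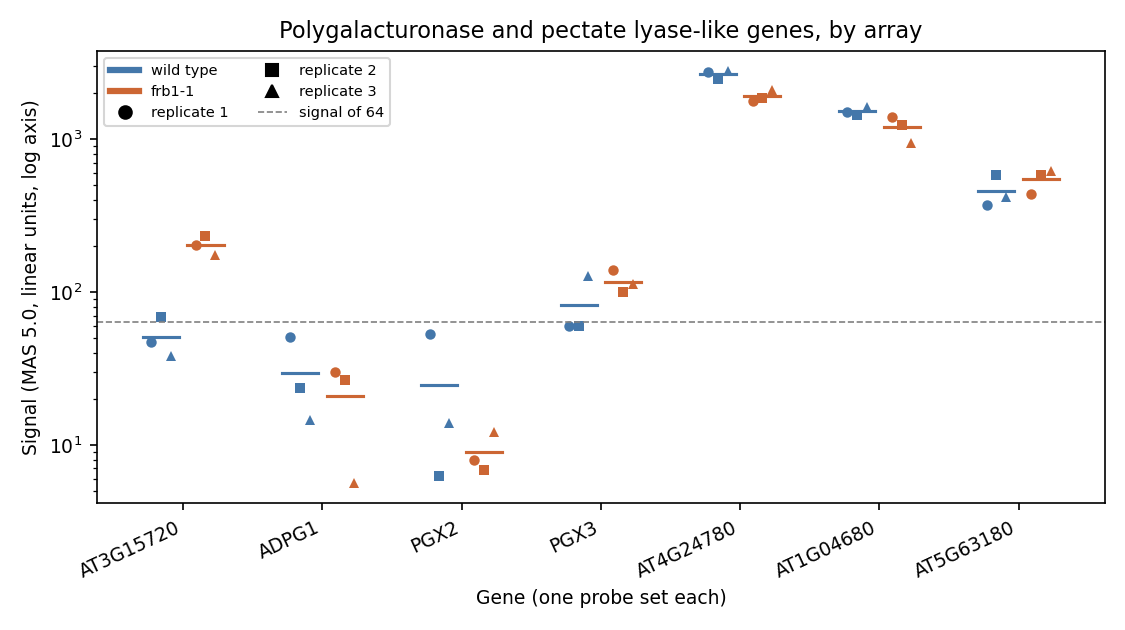
Signal of each member on each array (log axis, linear signal units), wild type in blue and *frb1-1* in orange, with a symbol for each replicate and a bar at the mean of 3 arrays. AT3G15720 lay between 37.9 and 68.4 in the wild type and between 175 and 234 in *frb1-1*, whereas ADPG1 and PGX2 lay under the dashed line at 64 on all 6 arrays.

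AT3G15720, a polygalacturonase gene, had the largest difference of the tested members between *frb1-1* and the wild type. Replicates 1, 2 and 3 of the wild type gave signals of 47.1, 68.4 and 37.9, and those of *frb1-1* gave 204, 234 and 175. The lowest mutant array was thus well above the highest wild-type array. The means were 51.1 ± 15.7 (SD, n = 3) and 204 ± 29.4 (SD, n = 3), a ratio of 4.00. The log2 fold change was 2.03 (standard error 0.38, 95% interval 1.19 to 2.87, here and below from limma and for the gene taken singly), and with an adjusted p = 0.0538 from limma it narrowly missed the threshold.

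Whether AT3G15720 was called depended on the setting. Among settings that make no use of the replicate number, it passed with arrays scaled to a common median (adjusted p = 0.0366 from limma), with a pseudocount of 32 (0.0333), without the mean-variance trend (0.0381), with array weights (0.0184) and without wild-type replicate 3 (0.0492). It did not pass without any other array, with adjusted p from 0.0737 to 0.397, nor with no filter (0.141) or under quantile normalization (0.0517). The log2 fold change was 1.52 with the pseudocount and 1.84 to 2.26 when 1 array was left out. The mean wild-type signal is under 64, which makes the fold inexact, and the gene passed the minimum through its *frb1-1* arrays. Under the stricter filters (an average log2 signal of 7, or 6 on every array) it was not tested.

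ADPG1 and PGX2 gave only dim signals in seedlings of both genotypes. ADPG1 is known for the opening of pods, with ADPG2, and of anthers, with ADPG2 and QRT2. The 3 wild-type arrays gave signals of 50.5, 23.7 and 14.5 for ADPG1, and the 3 mutant arrays 29.9, 26.7 and 5.64. PGX2, known for cell expansion and stem strength, had 53.5, 6.26 and 13.9 in the wild type and 7.97, 6.86 and 12.1 in *frb1-1*. Both genes were under the minimum on each array and the groups overlapped, so that no fold is given. Detection calls were not used here, and these values do not show whether either transcript was present.

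PGX3 is known to shape pavement cells and stomata of seedlings. Replicates 1, 2 and 3 gave signals of 59.9, 59.9 and 128 in the wild type and of 139, 99.6 and 113 in *frb1-1*. The groups overlapped through wild-type replicate 3, which was higher than 2 of the 3 mutant arrays. The means were 82.6 ± 39.4 (SD, n = 3) and 117 ± 20.0 (SD, n = 3). The log2 fold change was 0.59 (standard error 0.43, 95% interval -0.34 to 1.53, adjusted p = 1 from limma), and 0.96 without wild-type replicate 3 (adjusted p = 0.641).

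The pectate lyase-like genes AT4G24780 and AT1G04680 had lower mean signals in *frb1-1* than in the wild type, the opposite sign to AT3G15720, and neither was called. For AT4G24780 the wild-type signals were 2772, 2496 and 2788, and the *frb1-1* signals were 1774, 1874 and 2110. Each mutant array was below each wild-type array. The means were 2685 ± 164 (SD, n = 3) and 1919 ± 173 (SD, n = 3), a ratio of 0.715. The log2 fold change was -0.49 (standard error 0.19, 95% interval -0.90 to -0.07, adjusted p = 0.695 from limma), and ran from -0.56 to -0.43 over the alternatives.

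For AT1G04680 the signals were 1509, 1443 and 1620 in the wild type and 1410, 1236 and 947 in *frb1-1*. The groups did not overlap, but *frb1-1* replicate 1 was close to wild-type replicate 2 and the mutant arrays spread more widely. The means were 1524 ± 89.4 (SD, n = 3) and 1198 ± 234 (SD, n = 3). The log2 fold change was -0.36 (standard error 0.21, 95% interval -0.83 to 0.10, adjusted p = 0.996 from limma). Without *frb1-1* replicate 3 it was -0.21.

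AT5G63180, the other pectate lyase-like member, had signals of 372, 584 and 419 in the wild type and 437, 587 and 618 in *frb1-1*. The genotypes overlapped, and the difference of the means, 458 ± 111 and 547 ± 96.8 (SD, n = 3), was smaller than the spread within each. The log2 fold change was 0.27 (standard error 0.25, 95% interval -0.28 to 0.81, adjusted p = 1 from limma). When 1 array was left out it ran from 0.13 (without wild-type replicate 1) to 0.45 (without wild-type replicate 2), and it was 0.42 and 0.17 without *frb1-1* replicates 1 and 3. Among the 5 tested members, 3 had genotypes without overlap, with *frb1-1* higher for AT3G15720 and lower for AT4G24780 and AT1G04680, against 10.9% of all probe sets tested. Of these 3, AT3G15720 passed the minimum through its *frb1-1* arrays, and the members were chosen with earlier results of these data known. The share is thus a description and no test. The number of members is small, and the members that passed the minimum do not stand for all 10.

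The 2 enzyme classes were also examined beyond the listed loci. Of 59 other polygalacturonase loci, 40 have a probe set of their own, 12 occur only in probe sets shared with other genes and were not counted, and 25 of the 40 were under the minimum. None of the 15 tested was called. Their log2 fold changes ran from -0.44 to 0.69 with a median of 0.05, where the median over all probe sets tested was 0.01. Genes under the minimum are not in this range. An unadjusted p under 0.05 was found for 2 of the 15, both with higher signals in *frb1-1*, beside 3.86% of all probe sets in that direction.

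These 2 are AT1G60590 and AT1G10640. AT1G60590 had signals of 239, 176 and 193 in the wild type and 309, 299 and 370 in *frb1-1*, with no overlap. Its log2 fold change was 0.69, with a standard error of 0.24 and an adjusted p = 0.615 from limma. AT1G10640 had 199, 160 and 205 in the wild type and 267, 264 and 342 in *frb1-1*, again without overlap (log2 fold change 0.63, standard error 0.25, adjusted p = 0.738). Neither gene was called. Next by p were AT5G41870 (0.65, standard error 0.40), also without overlap, and AT3G42950 (-0.44, standard error 0.28), with overlap. Of the 15 tested genes of this list, 3 thus had genotypes without overlap, beside 10.9% of all probe sets tested, in either direction. AT3G16850, named for the highest mean log2 signal of its list, had means of 1334 and 1343 and a log2 fold change of 0.02 (standard error 0.22, 95% interval -0.46 to 0.50).

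**Figure D2:**
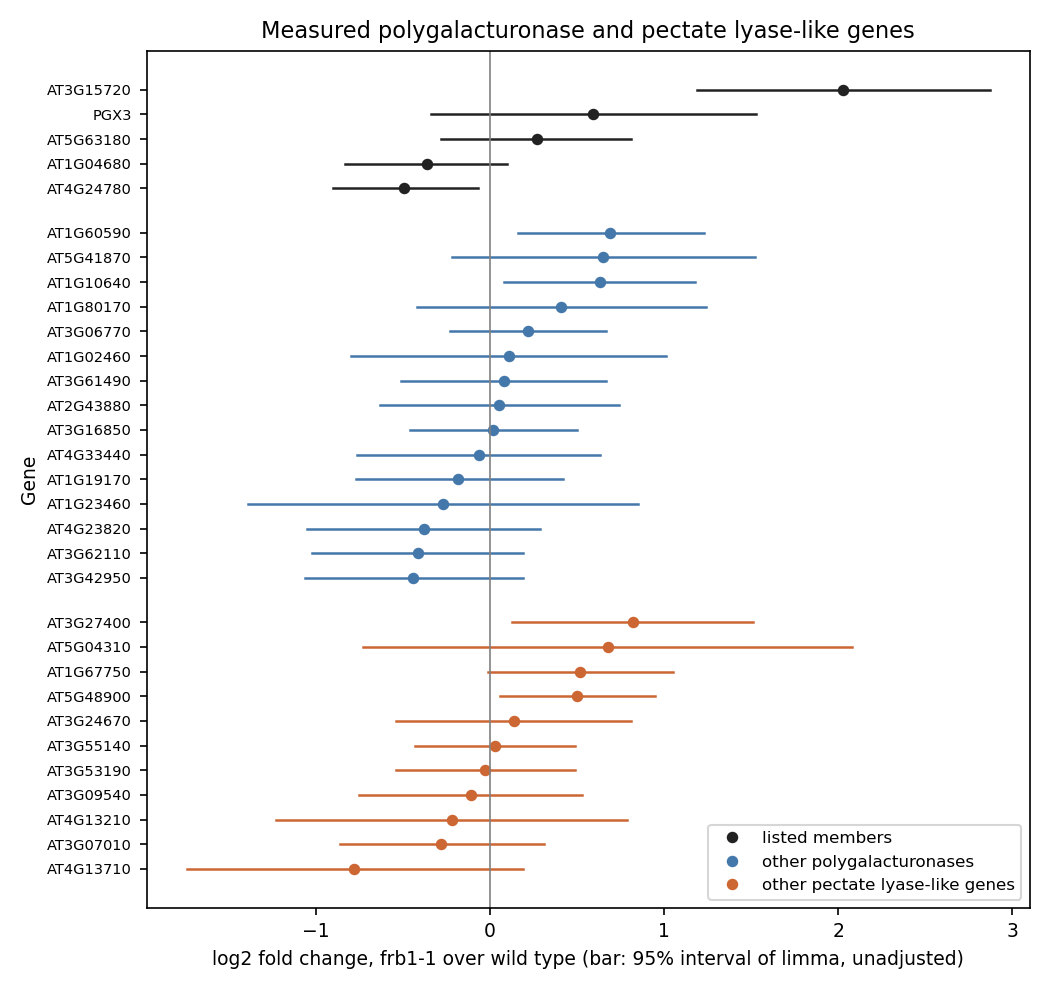
Log2 fold change (x axis, *frb1-1* over wild type) of each tested gene (y axis), with its 95% interval from limma, not adjusted for the number of genes. None of the 31 genes was called. AT3G15720, at 2.03, and AT5G04310, at 0.68, passed the minimum through their *frb1-1* arrays. Genes of both classes under the minimum are not drawn.

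Of 23 other pectate lyase-like loci, 20 have a probe set of their own and 11 were tested, and none was called. Their log2 fold changes ran from -0.78 for AT4G13710 to 0.82 for AT3G27400, with a median of 0.03. AT5G04310, at 0.68 and with overlapping groups, is among the 11 and passed the minimum through its *frb1-1* arrays. AT3G27400 had signals of 119, 81.6 and 148 in the wild type and 201, 192 and 205 in *frb1-1* (standard error 0.31, adjusted p = 0.689 from limma). AT5G48900 had 591, 690 and 627 in the wild type and 816, 984 and 908 in *frb1-1*, with a log2 fold change of 0.50, a standard error of 0.20 and an adjusted p = 0.761. In both genes every mutant array was above every wild-type array, the opposite order to AT4G24780 and AT1G04680 of the same class. Of the 11 tested genes of this list, only these 2 had genotypes without overlap, beside 10.9% of all probe sets tested, in either direction. AT1G67750 had 0.52 (standard error 0.24) with overlapping groups, and AT3G53190, named for the highest mean log2 signal, had -0.03 (standard error 0.24, 95% interval -0.54 to 0.49).

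Over both classes, members included, 17 polygalacturonase and 14 pectate lyase-like genes were tested. Positive log2 fold changes were found for 11 of the 17 and for 7 of the 14. The medians were 0.08 and 0.00. Of all probe sets tested, 7803 were positive and 7415 negative. AT3G15720, in the 17, and AT5G04310, in the 14, were positive and passed the minimum through their *frb1-1* arrays. These counts and medians are thus a description and no test. Of the rhamnogalacturonan lyases, which cut another pectin domain, 5 of 7 loci have a probe set and only AT1G09910 was tested (0.41, standard error 0.33, adjusted p = 1 from limma).

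Few known regulators of cell separation could be followed, since the annotation names a probe set for 3 of 34 listed loci and for none of 8 polygalacturonase inhibitors and BURP-domain proteins. ALC, a transcription factor of pod opening, had mean signals of 194 in the wild type and 144 in *frb1-1* (log2 fold change -0.44, standard error 0.29, adjusted p = 0.996 from limma). HWS, an F-box protein known for the shedding and separation of floral organs, had 421 and 348 (-0.25, standard error 0.29). AGL18, a MADS-domain factor that delays abscission, had 192 and 193 (0.02, standard error 0.30). In each of the 3 the groups overlapped and none was called.

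The named genes whose signals across the 6 arrays were nearest to those of AT3G15720 were found by the root mean square distance of log2 signals, each centred on its mean. They were XTH19, an enzyme of xyloglucan remodelling (distance 0.15), AT3G02480, an LEA-type gene (0.23), and AT5G64120, a class III peroxidase gene (0.30). Replicates 1, 2 and 3 gave 417, 582 and 334 for XTH19 in the wild type and 1853, 1590 and 1301 in *frb1-1*. In the wild type it shared with AT3G15720 the highest signal on replicate 2 and the lowest on replicate 3. In *frb1-1* both were lowest on replicate 3, but XTH19 was highest on replicate 1 and AT3G15720 on replicate 2. The log2 fold changes of these 3 genes were 1.86, 2.24 and 1.48, and unlike AT3G15720 they were called (adjusted p = 0.00871, 8.14e-04 and 0.0189 from limma). Their signals in the wild type were above the minimum on each array (334 to 2055). They were chosen for this likeness, over 6 arrays, so that the distances are a description.

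**Figure D3:**
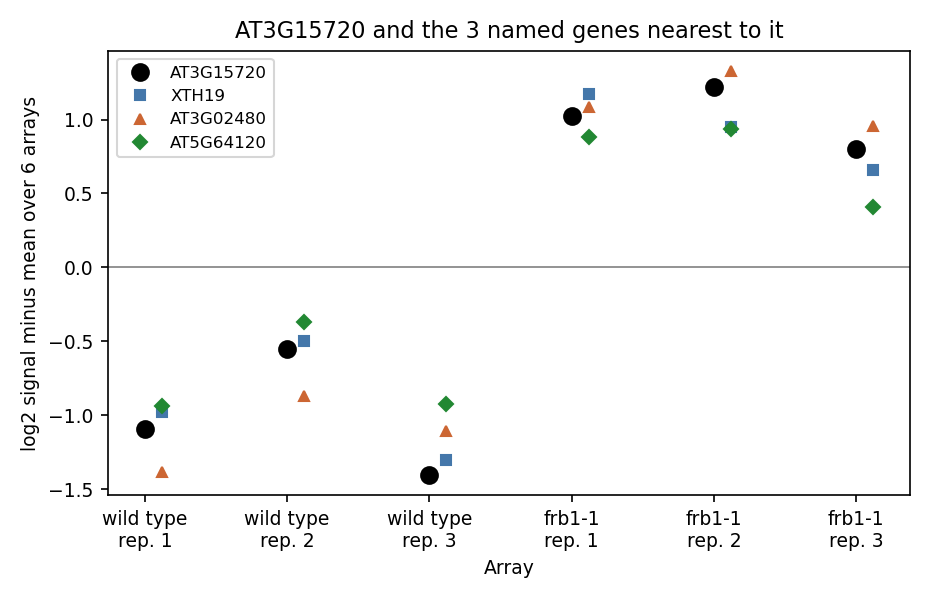
Log2 signal minus its mean over the 6 arrays (y axis) for AT3G15720 (black circles) and the 3 named genes nearest to it, on each array (x axis). All 4 genes lie below 0 on the wild-type arrays and above 0 on the *frb1-1* arrays, at distances of 0.15 to 0.30 from AT3G15720.

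Of the genes next to the 7 members on the chromosome, 3 were tested and none was called. AT3G15710, beside AT3G15720, had mean signals of 1283 in the wild type and 1392 in *frb1-1*, a difference of 0.12 on the log2 scale (adjusted p = 1 from limma). AT4G24790, beside AT4G24780, had -0.12 (adjusted p = 1). AT5G63190, beside AT5G63180, had 0.55 (adjusted p = 0.598). These neighbours were chosen after the values of the members were seen, and the other neighbours were under the minimum or had no probe set of their own.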

How the data were processed

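The deposited values are linear signal intensities. The authors computed them with MAS5 (MAS 5.0), with 500 as the target of scaling. Before their own analysis they dropped probe sets that were absent in a replicate, but the deposited table holds all 22810. Here the 64 controls were left out, and 15218 probe sets that averaged 6 or more in log2 signal were tested. The test, 3 wild-type against 3 *frb1-1* arrays, was that of limma 3.58.1 (R 4.3.3), fitted with lmFit and eBayes and a mean-variance trend, without a pseudocount or further scaling, with Benjamini-Hochberg adjustment over all probe sets tested. The study names no test. The test was run on simulated data first. No pair of arrays was identical. The labels call the replicates biological, and the number of arrays limits the precision.

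Genes were named through the platform annotation, which gives 1 gene to 13513 probe sets, several to 503 and none to 8794. Of the 13513, 13436 matched a locus tag of RefSeq (TAIR10.1). The paper names no build, so that no coordinates are given. Where a gene has several probe sets, the one with the highest mean stands for it. Members and lists were chosen with earlier results of these data known, and the loci of the lists were written from general knowledge. Named are the members, up to 4 genes of each list by p with the one of highest signal, and the 3 nearest to AT3G15720. AT4G13710, AT5G04310 and the neighbours were named after their values were seen. Alternatives were 2 scalings, 3 filters, a pseudocount of 32, leaving out each array, a replicate block, array weights, no trend and, for a single gene, an exact permutation test.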

Additional observations from a re-analysis of the deposited data

How the results depend on the processing

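The number of probe sets called, 56 with all arrays, was 17 to 80 when 1 array was left out (leaving out replicate 1 gave 20 for the wild type and 17 for *frb1-1*, and leaving out replicate 2 of either genotype gave 28), 28 without the mean-variance trend, 122 with array weights and 138 with the replicate block. It was 47 to 67 under the scalings, filters and the pseudocount. The number of members called, 0 with all arrays, was 1 with median scaling, with the replicate block, with the pseudocount of 32, without the mean-variance trend and with array weights, and 0 to 1 when 1 array was left out (1 without wild-type replicate 3). It was AT3G15720 each time. No other tested polygalacturonase or pectate lyase-like gene was called under any of the 15 alternatives, and no log2 fold change of the 5 tested members changed sign in the alternatives that tested it. ADPG1 and PGX2 were under the minimum in each of them but the one with no filter, so that their sign was not followed when an array was left out.

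The labels do not say whether same-numbered arrays of the genotypes belong together. The correlations of their deviations from the group means were 0.0413, 0.280 and 0.325 for replicates 1, 2 and 3. Wild-type replicate 3 with *frb1-1* replicate 2 gave -0.309, and wild-type replicate 2 with *frb1-1* replicate 3 gave -0.297. These values do not settle whether the numbers pair the arrays. Replicate 1 of the wild type correlated more with *frb1-1* replicate 2 (0.117) than with its own number. With the replicate number as a block, AT3G15720 had an adjusted p = 0.0252 from limma, and no other member was called. Each member has 1 probe set, so that using every probe set of a gene changed no member. Dim signals limit ADPG1 and PGX2, which were tested only with no filter, where neither was called (adjusted p = 1 from limma).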
